A study of Mus musculus with 22 samples.

Results

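The complement components and regulators described here were 9 genes: the C1q chains C1qa, C1qb and C1qc, the components C2, C3, C4b and Cfb, and the regulators Cfi and Serping1. They were taken as a list by gene symbol. All 9 were among the 53801 genes of the bulk count tables and among the 19324 genes of the single-cell matrix. The study compared AdipoR1-/- mice, a germline KO backcrossed into C57BL/6J, with WT mice of the same strain label. The paper also names a backcross into a B6 background with a Tyr mutation. The question was how loss of the ceramidase ADIPOR1 changes the retina and the retinal pigment epithelium (RPE), the pigmented layer behind the photoreceptors. Bulk RNA-Seq at P30 (30 days of age) covered the retina and the RPE, with 4 libraries per genotype and tissue, and the RPE cells had been shaken off the eyecup. The study's text counts mice as the replicates of the bulk data, while the labels do not tie a library to an animal, so the tests below measure the spread between libraries. Single-cell RNA-Seq of the retina at P19, P25 and P30 had 1 library per genotype and age, each from 4 pooled retinae, and P30 was sequenced apart from the other ages, so that age and sequencing run cannot be told apart there. Both sexes were used, and no group received a treatment.

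Complement is a cascade of plasma and tissue proteins that tags targets for removal. C1q binds the target and starts the classical pathway, the proteases C1r and C1s then cut C4 and C2, and the products cleave C3, whose fragment is deposited on surfaces and read by receptors on phagocytes. Cfb forms the C3-cleaving enzyme of the alternative pathway. Serping1 encodes the C1 inhibitor, which inactivates C1r and C1s, and Cfi encodes factor I, which cuts deposited C3b and C4b when a cofactor is present. In the eye, microglia are a known source of C1q.

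In the annotation used for names (GENCODE M21, on GRCm38), the C1q chains lie beside each other on the minus strand, C1qb at chr4:136880129-136886187, C1qc at chr4:136889804-136893065 and C1qa at chr4:136895917-136898803. C4b (chr17:34728380-34743882), Cfb (chr17:34856374-34862518) and C2 (chr17:34862604-34898265) share another cluster, also on the minus strand. C3 lies at chr17:57203970-57228136, Serping1 at chr2:84765387-84775444, both on the minus strand, and Cfi at chr3:129835884-129875332 on the plus strand. Promoter windows of 250 bases before to 50 bases after the RefSeq start (GRCm38.p6) were held for 3 members, and are printed because C1qb and C1qc moved together in both tissues while C3 moved in the retina. C1qa, C2, C4b, Cfb, Cfi and Serping1 had no entry. Each window is given 5′ to 3′ on the strand of the gene, in lower case with motif matches in capitals.
C1qb promoter, chr4:136886151-136886450: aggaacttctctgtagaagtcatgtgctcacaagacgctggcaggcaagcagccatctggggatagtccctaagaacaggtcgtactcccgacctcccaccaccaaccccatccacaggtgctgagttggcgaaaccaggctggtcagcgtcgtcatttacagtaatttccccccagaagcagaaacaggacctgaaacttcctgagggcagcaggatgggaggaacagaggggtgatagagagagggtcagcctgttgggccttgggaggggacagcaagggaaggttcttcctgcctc
C1qc promoter, chr4:136892865-136893164: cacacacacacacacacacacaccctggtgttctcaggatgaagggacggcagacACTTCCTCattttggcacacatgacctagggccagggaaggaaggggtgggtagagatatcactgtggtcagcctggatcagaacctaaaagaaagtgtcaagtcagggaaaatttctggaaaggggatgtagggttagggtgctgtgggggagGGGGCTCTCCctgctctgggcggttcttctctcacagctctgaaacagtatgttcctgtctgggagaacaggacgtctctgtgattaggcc
C3 promoter, chr17:57228087-57228386: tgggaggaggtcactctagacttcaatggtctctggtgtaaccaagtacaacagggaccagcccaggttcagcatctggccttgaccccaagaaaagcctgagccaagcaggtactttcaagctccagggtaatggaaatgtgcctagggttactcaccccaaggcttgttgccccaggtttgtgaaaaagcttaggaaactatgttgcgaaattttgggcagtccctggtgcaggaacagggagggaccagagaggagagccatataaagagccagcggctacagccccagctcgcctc

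Both strands were searched for 4 motifs: a STAT site (TTCNNNGAA), the core of the interferon-stimulated response element (GAAA, any 2 bases, GAAA), a PU.1 site (GAGGAAGT) and the NF-kappaB consensus. No matched stretch overlapped another. The C1qc window held a PU.1 match in reverse orientation (ACTTCCTC, bases -195 to -188, where -1 is the last base before the start) and an NF-kappaB match in forward orientation (GGGGCTCTCC, bases -41 to -32). None of the 4 letter patterns was present in the C1qb and C3 windows. Of the 32851 windows in the RefSeq table, 8.3% held the STAT pattern, 3.44% the interferon core, 3.2% the PU.1 pattern and 8.46% the NF-kappaB pattern, so each match was found in a few percent of all promoters.

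The bulk libraries held 20133143 to 38409496 counts each. Adipor1, the targeted gene, had a mean CPM (counts scaled to a common library size) of 600.4 in the WT retina against 139 in the KO retina. In the RPE the means were 409 for WT libraries and 146 for KO libraries, and the genotypes did not overlap in either tissue. Reads of the gene thus remained in the KO libraries. The 8 RPE markers (such as Rpe65) summed to 32040 to 49670 CPM in the RPE libraries and to 39.1 to 166 CPM in the retina libraries. The 8 rod photoreceptor markers still summed to 616 to 14970 CPM in the RPE libraries, and these libraries varied more between replicates than those of the retina (biological coefficient of variation 0.295 against 0.0921).

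In the KO retina 7 of the 8 members that passed the filter on low counts rose, C2 did not pass the test, and Cfb was too low to be tested. A gene was called when it changed by 1.5-fold or more and its Benjamini-Hochberg adjusted p in edgeR's quasi-likelihood test was below 0.05. Of the 19381 genes tested in the retina 10.0% were called, with 7.0% higher and 3.04% lower. With libraries scaled by their totals alone, 82.2% of the called genes were higher, in place of 69.7%, and the median log2 fold change of all genes became 0.11. The median log2 fold change of the 8 members was 2.67, beside 0.0036 for all genes tested. By role, 5 of 6 tested activators and both regulators rose. In the KO RPE 5 of 9 members rose, namely the C1q chains, C4b and Cfi, where 4.97% of 18989 genes were called, with 2.02% higher and 2.95% lower. The median of the 9 was 1.92, beside -0.019 for all genes. Here 4 of 7 activators and 1 of 2 regulators rose, and C2, C3, Cfb and Serping1 did not pass. The number of all genes called in the RPE was 944, and 563 without KO library 4, 588 without KO library 2 and 1677 without WT library 1, while the member calls in the RPE were the same in each of these. In whole tissue, fewer cells of a type and less RNA per cell cannot be told apart, nor can more cells from more RNA per cell.

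**Figure D1:**
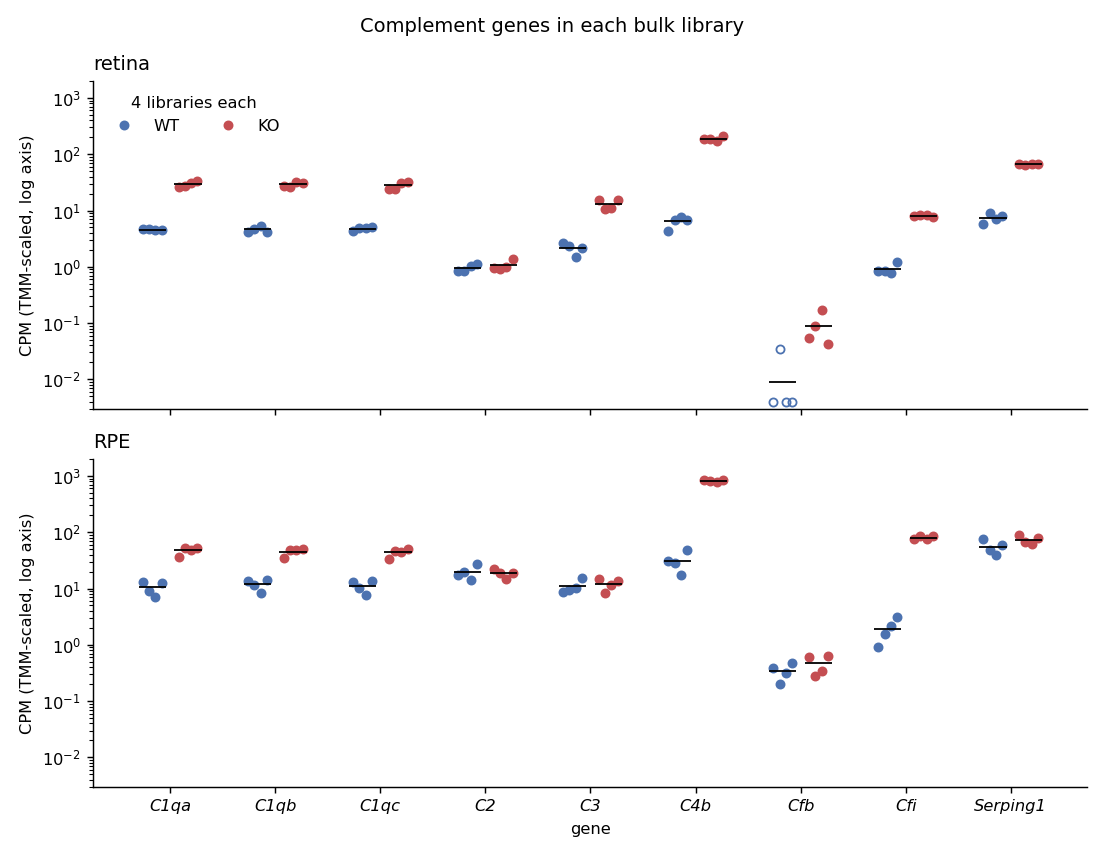
Level of each complement gene in each bulk library, in CPM on a log axis, for retina (top) and RPE (bottom). Points are libraries (4 WT in blue, 4 KO in red), lines are means, and the WT Cfb points of the retina are open because 3 of the libraries held 0 counts and are drawn at the lower edge. The KO points lie above all WT points for C1qa, C1qb, C1qc, C4b and Cfi in both tissues. In the retina they also do for C3, Serping1 and Cfb, where Cfb rests on few counts.

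The C1q chains rose in both tissues. In the retina C1qa stood at 4.76, 4.62, 4.45 and 4.51 CPM in the WT libraries and at 26.4, 27.0, 30.8 and 33.5 CPM in the KO libraries. In the RPE it stood at 13.3, 9.16, 7.20 and 12.5 CPM in the WT libraries and at 36.9, 52.1, 49.0 and 52.4 CPM in the KO libraries. All KO libraries thus lay above all WT libraries, which held for KO over WT in 16.2% of genes tested in the retina and 7.37% in the RPE. The log2 fold change was 2.68 ± 0.089 (SE) in the retina (edgeR's quasi-likelihood test, Benjamini-Hochberg adjusted p = 1.2e-10) and 2.18 ± 0.22 in the RPE (adjusted p = 0.0013). C1qb, whose chain joins that of C1qa and C1qc in 1 molecule, changed by 2.67 ± 0.096 in the retina (edgeR, adjusted p = 3e-10) and 1.92 ± 0.19 in the RPE (adjusted p = 0.0013). C1qc changed by 2.55 ± 0.11 (edgeR, adjusted p = 1.2e-09) and 1.98 ± 0.21 (adjusted p = 0.0016). The chains kept close to each other in every library: the CPM of C1qb was 0.871 to 1.26 times that of C1qa over the 16 libraries, and that of C1qc 0.880 to 1.12 times.

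Microglia and macrophage markers moved in the same direction as C1q. All 13 genes of that list (such as Cx3cr1, P2ry12 and Aif1) were called higher in the KO retina, where their summed level was 64.1 to 67.4 CPM in WT and 193 to 221 CPM in KO libraries. In the RPE 10 of 13 were called higher, not Tmem119, Csf1r and Siglech, with sums of 424 to 680.4 CPM in WT and 752 to 819 CPM in KO. Csf1r alone made up most of the sum in every RPE library, so the RPE sums mainly follow a gene that was not called. No gene of the list was at 0 in a group. Divided by that sum, the summed C1q level was 0.206 to 0.221 in the WT retina and 0.404 to 0.480 in the KO retina, so the ratio did not overlap between genotypes. In the RPE it was 0.0395 to 0.0728 in WT and 0.140 to 0.187 in KO, and without Csf1r, which was not called there, 0.308 to 0.362 and 0.538 to 0.620. The part of microglial number in the C1q values of the bulk libraries was not tested.

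C4b, the component that C1s cleaves, had the largest fold change of the members in the retina. Its 4 WT retina libraries held 4.29, 6.77, 7.80 and 6.83 CPM and its KO libraries 185, 185, 169 and 212 CPM. In the RPE the WT libraries held 30.7, 27.9, 17.6 and 47.8 CPM and the KO libraries 838, 815, 798 and 856 CPM. Every KO library lay above every WT library in both tissues. These were changes of 29.3-fold in the retina (log2 4.87 ± 0.12, edgeR, adjusted p = 9.2e-12) and 26.7-fold in the RPE (log2 4.74 ± 0.30, adjusted p = 0.00023). C4a, a near-identical neighbour of C4b, rose from 3.07 ± 0.12 to 18.9 ± 2.0 CPM (SD, n = 4) in the retina and from 3.52 ± 0.78 to 65.6 ± 3.0 CPM in the RPE, and no source states how reads were divided between C4a and C4b. C2, the protease that pairs with C4b, held 0.850, 0.846, 1.02 and 1.13 CPM in the WT retina against 0.962, 0.899, 0.982 and 1.39 CPM in the KO retina. In the RPE it held 17.6, 19.95, 14.1 and 26.9 CPM in WT and 22.5, 19.3, 14.9 and 19.1 CPM in KO. C2 libraries of the genotypes overlapped in both tissues. Its log2 fold change was 0.12 in the retina (95% interval -0.31 to 0.56, edgeR, adjusted p = 0.7) and -0.05 in the RPE (-0.53 to 0.43, adjusted p = 0.92), and both intervals lay within 1.5-fold in either direction. C2 shares 1656 exon bases with the readthrough gene Gm20547, which was at 0 in all 16 libraries, and 161 with Zbtb12 on the other strand.

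C3, the central component, rose in the retina. Its WT retina libraries held 2.65, 2.36, 1.51 and 2.15 CPM and its KO libraries 15.6, 10.9, 11.3 and 15.1 CPM, a log2 fold change of 2.60 ± 0.17 (edgeR, adjusted p = 8.4e-08). In the RPE the WT libraries held 8.84, 9.31, 10.2 and 15.6 CPM and the KO libraries 14.6, 8.46, 11.4 and 13.4 CPM, and the log2 fold change was 0.13 ± 0.23 (95% interval -0.41 to 0.66, edgeR, adjusted p = 0.78). Scaled over all libraries, the KO retina reached 1.89 to 2.71 RPKM (counts divided by exon length and library size), within the 1.85 to 3.29 seen over both genotypes of the RPE. Cfb was close to the limit of detection in the retina, with 0, 1, 0 and 0 counts in WT and 2, 3, 5 and 1 counts in KO. The ratio of the summed counts per depth was 10.9 (exact 95% counting interval 1.58 to 468), and a 2-sided exact permutation test of the CPM over the 4 and 4 libraries gave p = 0.0286, the smallest that free exchange of labels allows. With labels exchanged within pairs of the same replicate number, the 2-sided exact permutation p was 0.125, the smallest that 4 pairs allow. In the RPE, Cfb held 0.381, 0.198, 0.318 and 0.471 CPM in WT and 0.614, 0.274, 0.340 and 0.641 CPM in KO, with overlapping genotypes and a log2 fold change of 0.49 ± 0.38 (edgeR, adjusted p = 0.51). Cfb shares 2246 exon bases with Gm20547.

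Both regulators rose in the retina and parted in the RPE. Serping1 held 5.78, 8.92, 6.93 and 7.86 CPM in WT and 66.6, 65.3, 66.0 and 68.3 CPM in KO retina, a 9.02-fold rise (log2 3.17 ± 0.098, edgeR, adjusted p = 6.2e-11). In the RPE it held 74.7, 48.4, 39.9 and 59.5 CPM in WT and 89.4, 66.9, 61.2 and 78.0 CPM in KO. These RPE values overlapped, and the log2 fold change of 0.41 ± 0.20 (95% interval -0.06 to 0.87) did not pass the test (edgeR, adjusted p = 0.31). With the replicate number as a block the adjusted p was 0.0299, at a log2 fold change of 0.43 that stayed under the 1.5-fold minimum. Cfi held 0.850, 0.846, 0.791 and 1.23 CPM in WT and 8.11, 8.24, 8.33 and 7.53 CPM in KO retina. In the RPE it held 0.898, 1.53, 2.17 and 3.09 CPM in WT and 74.6, 87.2, 76.3 and 84.2 CPM in KO. The genotypes lay far apart in both tissues. Cfi changed by 8.62-fold in the retina (log2 3.11 ± 0.14, edgeR, adjusted p = 2e-09) and by 43.1-fold in the RPE (log2 5.43 ± 0.34, adjusted p = 0.00023), the largest change of the 9 members in that tissue.

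Other cell type lists were read beside these values. In the retina 2 of 5 astrocyte markers were called higher, namely Gfap and Aldh1l1, and not Pax2, S100b and Slc1a2. The sums of this list were 406 to 424 CPM for WT and 557 to 615 CPM for KO. Of 4 tested fibroblast markers 2 were called higher, with sums of 18.4 to 23.97 CPM for WT and 30.6 to 71.5 CPM for KO. Neither list's sums overlapped between the genotypes there, and neither had a gene called higher in the RPE. The Müller glia markers were close in both genotypes, with 1 of 7 genes called higher in the retina and none in the RPE, and sums of 3776 to 4059 CPM in WT and 3743 to 4045 CPM in KO retina. No rod bipolar marker of 7 was called in either tissue. Their sums were 1143 to 1212 CPM for WT against 1270 to 1298 CPM for KO in the retina, and 456 to 907 CPM for WT against 373 to 543 CPM for KO in the RPE. In the retina 7 of 8 rod markers were called lower, with sums of 57430 to 62850 CPM in WT and 29600 to 34140 CPM in KO. In the RPE all 13 genes of a liver-type plasma protein list (such as Alb and Apoa1) were called lower. Their sums were 174 to 426 CPM in WT and 8.06 to 53.3 CPM in KO. Several members, C3, Cfb, Cfi and Serping1 among them, are also made in liver. Lens markers summed to 1.47 to 855 CPM over the WT RPE libraries and to 2.84 to 18.5 CPM over the KO RPE libraries, with none of 5 called. The part of these cells in the member values was not tested.

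**Figure D2:**
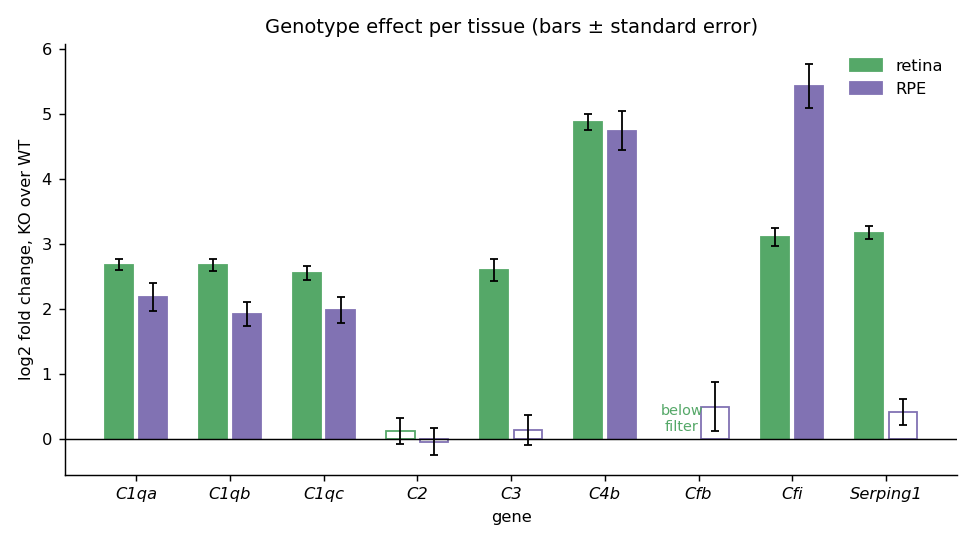
Log2 fold change of KO over WT for each complement gene in retina (green) and RPE (purple), from edgeR's quasi-likelihood fit of each tissue, with standard error bars. Filled bars are called genes and open bars are not, and Cfb was below the filter in the retina. Cfi has the taller bar in the RPE (5.43 against 3.11), while C3 and Serping1 reach 2.60 and 3.17 in the retina and 0.13 and 0.41 in the RPE.

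Whether the genotype effect itself differed between the tissues was tested in 1 fit of the 16 libraries with an interaction term, where a call needed an adjusted p below 0.05. The effect was smaller in the RPE for Serping1, C3 and C1qb and larger in the RPE for Cfi, so 4 of 9 members were called, and 8.84% of 21068 genes were, 3.11% with a larger and 5.73% with a smaller effect in the RPE. Of the calls over all genes 35.2% were larger in the RPE, and 14.2% with library totals alone as the scaling, which moved the median difference of all genes to -0.18. For Serping1 the effect in the RPE minus that in the retina was -2.74 ± 0.24 on the log2 scale (edgeR, adjusted p = 7.6e-06), for C3 -2.45 ± 0.32 (adjusted p = 0.00022) and for Cfi 2.35 ± 0.37 (adjusted p = 0.00095). These held in all 24 alternative settings. The 2 regulators thus differed in opposite directions. C1qb, at -0.73 ± 0.21 (edgeR, adjusted p = 0.044), lost its call in 19 of 24 alternative settings, with an adjusted p of 0.0646 when the replicate number was a block, and C1qa (-0.47 ± 0.22, adjusted p = 0.23) and C1qc (-0.54 ± 0.23, adjusted p = 0.17) were not called. For C4b the difference was -0.10 (95% interval -0.76 to 0.56, edgeR, adjusted p = 0.88), and for C2 it was -0.15 (-0.74 to 0.44, adjusted p = 0.79). Cfb (-2.27 ± 0.97, edgeR, adjusted p = 0.18) rested on few counts. The tissue comparisons share their libraries with the comparisons of genotype above.

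In WT animals all 9 members were higher in the RPE than in the retina, where 67.4% of genes differed between the tissues and 34.9% were higher in the RPE. The log2 difference ran from 1.31 ± 0.28 for Cfi (edgeR, adjusted p = 0.00057) to 4.92 ± 0.70 for Cfb (adjusted p = 1.4e-05), with 4.65 ± 0.21 for C2 and 3.22 ± 0.18 for Serping1. To compare genes with each other, counts were divided by exon length, as RPKM scaled over all 16 libraries. In the WT retina the level per length was 3.95 ± 0.12 (SD, n = 4) for C1qa, 3.80 ± 0.43 for C1qb, 2.84 ± 0.52 for Serping1, 2.21 ± 0.15 for C1qc and 1.01 ± 0.24 for C4b. C3, Cfi and C2 followed at 0.378 ± 0.085, 0.376 ± 0.084 and 0.222 ± 0.032 RPKM, and Cfb at 0.00279 ± 0.0056. Neighbours in this order had separate ranges from C1qc to C4b, from C4b to C3, from Cfi to C2 and from C2 to Cfb, and overlapping ranges elsewhere. In the WT RPE, Serping1 led with 26.4 ± 6.5 RPKM, above C1qb (12.2 ± 2.4), C1qa (11.2 ± 2.8), C1qc (6.36 ± 1.5), C4b (6.00 ± 2.3), C2 (5.61 ± 1.4), C3 (2.37 ± 0.64), Cfi (0.962 ± 0.46) and Cfb (0.134 ± 0.043).

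In the KO the order changed. C4b had the highest mean in both tissues, with 29.5 ± 2.7 RPKM in the retina, where its range overlapped that of C1qa, and 163 ± 3.5 RPKM in the RPE, above every other member. In the KO retina Serping1 (25.6 ± 0.37), C1qa (25.3 ± 2.8) and C1qb (24.2 ± 2.3) followed with overlapping ranges, then C1qc (12.9 ± 1.9), Cfi (3.24 ± 0.16), C3 (2.30 ± 0.42), C2 (0.244 ± 0.050) and Cfb (0.0282 ± 0.018). In the KO RPE, C1qa (51.5 ± 8.0), C1qb (46.7 ± 7.5), Cfi (40.8 ± 3.1) and Serping1 (35.7 ± 5.8) overlapped with their neighbours in the order, and C1qc (25.5 ± 3.9), C2 (5.50 ± 0.87), C3 (2.62 ± 0.57) and Cfb (0.185 ± 0.073) came below. Cfi thus moved from below C3 in the WT RPE to the level of C1qa and C1qb, and above C1qc, in the KO RPE.

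Beyond the 9 members, 59 other genes of the complement system were listed, of which 58 were in the count tables. In the retina 33 were tested, 14 rose and none fell (42.4% called higher, beside the 7.0% of all genes), and their median log2 fold change was 0.34. In the RPE 41 were tested, 10 rose and 1 fell (24.4% called higher, beside 2.02%), with a median of 0.18. At the start of the classical pathway, C1ra and C1rb, which encode the C1r protease, rose by 2.49 ± 0.20 and 2.05 ± 0.29 on the log2 scale in the retina and by 1.35 ± 0.15 and 1.36 ± 0.17 in the RPE (edgeR, adjusted p of 0.0036 or lower). The C1r-like gene C1rl rose by 1.02 ± 0.26 and 1.34 ± 0.10, and C1s1, the C1s protease, by 0.78 ± 0.17 and 0.93 ± 0.15 (edgeR, adjusted p of 0.01 or lower in each), where C1s1 shares exon bases with the antisense gene Gm16567. Of the genes for targets of the C1 inhibitor, C1ra, C1rb and C1s1 thus rose in both tissues. The other C1s gene, C1s2, was below the filter in the retina. In the RPE C1s2 was not called (log2 0.44 ± 0.24, edgeR, adjusted p = 0.35). In this group 5 of 8 tested genes rose in the retina and 5 of 10 in the RPE, and the alternative pathway genes Cfd and Cfp were not called in either tissue.

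Among fluid-phase regulators, A2m, a broad protease inhibitor, rose from 8.92 ± 4.4 to 149 ± 8.9 CPM in the retina and from 654 ± 105 to 6750 ± 265 CPM in the RPE (log2 4.08 ± 0.21 and 3.37 ± 0.15, edgeR, adjusted p = 9.3e-09 and 5.6e-05). Clu, which binds terminal complexes, rose by 1.66 ± 0.065 in the retina (edgeR, adjusted p = 6.4e-10) and by 0.81 ± 0.16 in the RPE (adjusted p = 0.021), and the RPE call was lost with the replicate block (adjusted p = 0.0541). Cpb2, a carboxypeptidase that also acts on C3a and C5a, was the gene that fell in the RPE, from 0.501 ± 0.065 to 0.0287 ± 0.036 CPM (log2 -3.93 ± 0.59, edgeR, adjusted p = 0.0073). Terminal components were largely below the filter, with 1 of 8 listed genes tested in the retina and 2 in the RPE, none of them called. Of 9 membrane regulators tested in each tissue only Csmd2 was called, in the retina, where 7.0% of all genes were called higher. Csmd2 changed by 0.83 ± 0.075 on the log2 scale (edgeR, adjusted p = 2.3e-06), and the call was lost when both tissues shared a fit (adjusted p = 0.532).

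Of the receptors and their chains, 5 of 9 tested rose in the retina and 3 of 10 in the RPE, beside 7.0% and 2.02% of all genes. C3ar1, the C3a receptor, changed by 2.77 ± 0.23 (edgeR, adjusted p = 8e-07), C5ar1, the C5a receptor, by 2.61 ± 0.44 (adjusted p = 0.0005), and the integrin chains Itgam, Itgax and Itgb2, which form the iC3b receptors of phagocytes, by 2.24 ± 0.18, 3.88 ± 0.33 and 2.31 ± 0.18 (adjusted p of 1.1e-06 or lower). In the RPE the changes of C3ar1 (1.06 ± 0.24), Itgax (1.47 ± 0.34) and Itgb2 (1.23 ± 0.23) passed the test, and those of C3ar1 and Itgax did not with the replicate block (edgeR, adjusted p = 0.0672 and 0.0862). The genotype effect was smaller in the RPE for C3ar1 (-1.69 ± 0.32, edgeR, adjusted p = 0.0041), C5ar1 (-1.85 ± 0.48, 0.027; 0.0585 with the block), Itgax (-2.40 ± 0.51, 0.0085) and Itgb2 (-1.06 ± 0.30, 0.039; 0.0543 with the block). Of the 42 other pathway genes in that test, 1 had a larger effect in the RPE, namely C4a (1.64 ± 0.16, edgeR, adjusted p = 1.9e-05). A smaller one was called for 8, namely C1ra, Clu, Cfhr2, Lrp1 and the 4 receptor genes just given. Over all genes in that test, 3.11% had a larger and 5.73% a smaller effect in the RPE. The microglia markers moved with the receptors, with the sums given above, and their part in these values was not tested. Itgam shares bases with the gene Gm49368.

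**Figure D3:**
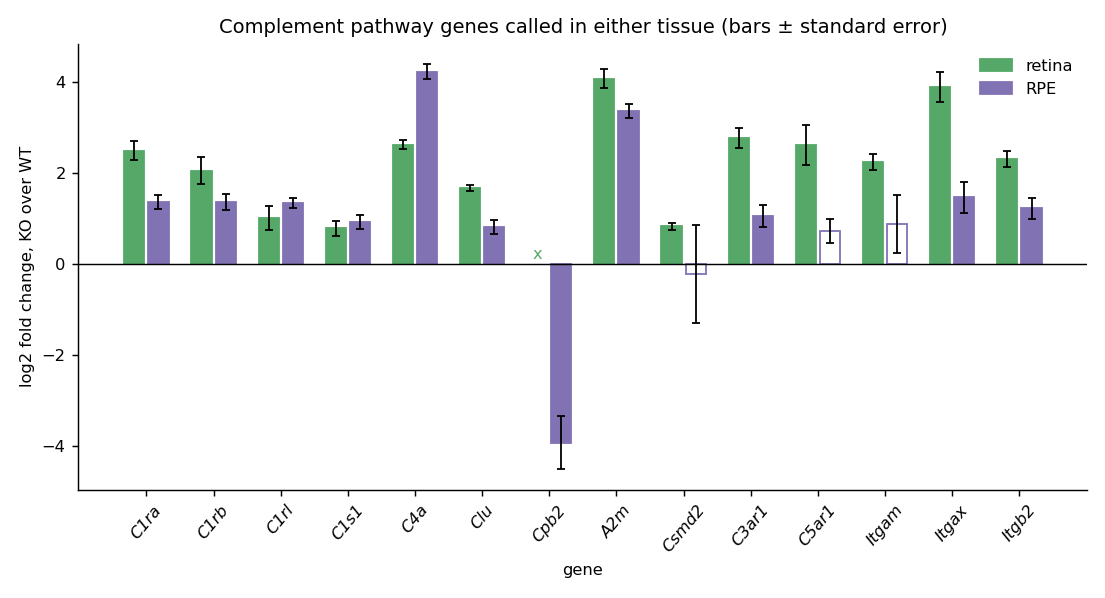
Log2 fold change of KO over WT for 14 of the other complement genes called in at least 1 tissue, in retina (green) and RPE (purple), with standard error bars from edgeR's quasi-likelihood fits. Filled bars are called, open bars are not, and x marks a gene below the filter. A2m has the tallest bar in the retina (4.08) and C4a in the RPE (4.23), and Cpb2 is the gene with a bar below 0 among those called.

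The single-cell matrix held 26764 cells of 6 libraries. Unique molecular identifiers (UMIs, 1 per captured transcript) were recovered from the deposited values, and each library held 5172257 to 25439885 UMIs over 2558 to 5633 cells, with medians of 1349 to 4357 UMIs per cell. The P30 libraries were the shallowest. Cells were clustered without the complement genes and clusters were named from marker lists, so the names are rebuilt and are not those of the study, and 49 barcodes occurred in more than 1 library. With 1 library per genotype and age there was no test between genotypes, and all intervals below are exact 95% intervals that cover counting error only. Droplet libraries carry free RNA, so the level of each member in rod-like cells, which should lack it, is given beside it as a background. The rod-like class included 71 cells that a finer clustering put in a cluster led by Lcn2, 61 of them in the KO library at P25, and in that library these cells held all 6 C3 UMIs, 7 of 11 C4b UMIs and 6 of 14 Serping1 UMIs of the class, so its level there is not free RNA alone.

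More than 50% of the UMIs of 6 of the 9 members came from 1 cell class. The 131 microglia and macrophage-like cells, 0.610% of all UMIs, held 99.0% of the 5712 C1qa UMIs (98.7% to 99.3%), 98.5% of the 4912 C1qb UMIs and 99.1% of the 3579 C1qc UMIs. Müller glia-like cells, 9.9% of all UMIs, held 75.5% of the 1853 C4b UMIs (73.5% to 77.4%) and 68.3% of the 2491 Serping1 UMIs (66.4% to 70.1%). Rod bipolar-like cells, 5.71% of all UMIs, held 92.9% of the 311 Cfi UMIs (89.5% to 95.5%). These shares pool both genotypes, and most of the C4b and Serping1 UMIs came from KO libraries. Over the WT libraries alone, Müller glia-like cells held 36.4% of 396 Serping1 UMIs (31.6% to 41.3%), against 74.3% of 2095 over the KO libraries (72.4% to 76.2%), so that the class passed 50% for Serping1 in each KO library and in no WT library. For C4b they held 58.8% of 102 UMIs in WT (48.6% to 68.5%) and 76.5% of 1751 in KO. Rod bipolar-like cells held 97.7% of the Cfi UMIs in WT and 91.0% in KO, and microglia and macrophage-like cells held 73.5% to 99.7% of the C1qa UMIs in each library. The 2 regulators thus had different leading cell classes, and so did the activators C1q and C4b. Smaller shares of C4b came from a cluster of 208 cells led by Ttr and Optc (10.3%), in which 7 of 8 RPE markers were detected but whose second leading gene is no RPE marker of the list, and from astrocyte-like cells (9.28%). For Serping1 the same cluster held 7.95% and pericyte and mural-like cells 4.66%.

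**Figure D4:**
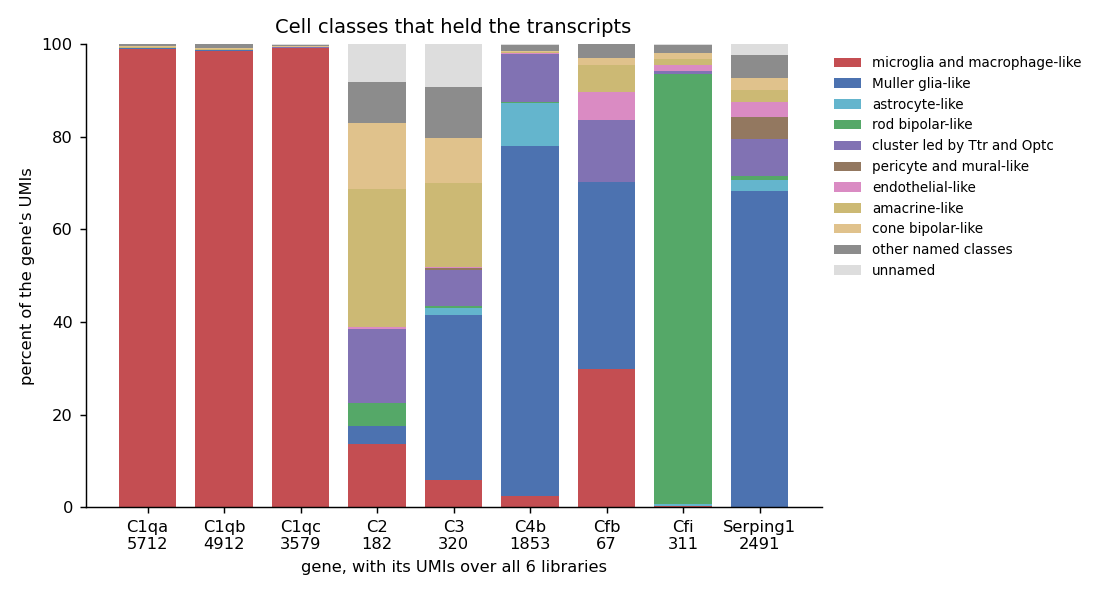
Share of each gene's UMIs by cell class over the 6 single-cell libraries of both genotypes together, as stacked bars in percent with the gene's total UMIs under its name. C1qa, C1qb and C1qc are nearly all microglia and macrophage-like, Cfi is mostly rod bipolar-like, C4b and Serping1 are mostly Müller glia-like, and C2, C3 and Cfb are spread over several classes.

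C2, C3 and Cfb were sparse. Of 320 C3 UMIs, 35.6% came from Müller glia-like cells (11.2% in WT and 46.4% in KO libraries) and 18.1% from amacrine-like cells, which hold 25.9% of all UMIs. The 182 C2 UMIs were spread widely, with 29.7% in amacrine-like, 15.9% in the cluster led by Ttr and Optc and 13.7% in microglia and macrophage-like cells, where the level of 39.7 CPM was the highest of any class and all 25 UMIs came from KO libraries. Of 67 Cfb UMIs, 40.3% were in Müller glia-like and 29.9% in microglia and macrophage-like cells, but 20 came from 1 cell and 70.2% from 10 cells. At a finer clustering, 130 cells formed a cluster led by Lcn2, Aldh1a1 and Chil1, of which 114 came from the KO library at P25. These cells held 52 of the C3 UMIs, 24 of the Cfb UMIs, 127 of the C4b UMIs and 192 of the Serping1 UMIs, beside 1047 UMIs of the Müller gene Rlbp1. They had been divided between Müller glia-like (59) and rod-like (71) clusters before. Over all cells at P30, the age of the bulk data, C3 had 17 UMIs in KO and 11 in WT. Its KO over WT ratio was 1.29 (0.569 to 3.04), beside 6.07-fold in the bulk retina. For Cfi this ratio was 3.19 (1.665 to 6.62), beside 8.62-fold. For C4b it was 44.2 (11.9 to 369), beside 29.3-fold, and for Serping1 8.37 (5.44 to 13.5), beside 9.02-fold. The cause of these differences was not tested.

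Microglia and macrophage-like cells were few in every library and a larger share of the cells in KO. They numbered 17 of 5439 in WT (0.313%, 0.182% to 0.5%) and 32 of 5300 in KO at P19 (0.604%, 0.413% to 0.851%). At P25 they were 7 of 4367 in WT (0.160%) and 40 of 5633 in KO (0.710%), and at P30 they were 4 of 2558 in WT (0.156%) and 31 of 3467 in KO (0.894%). The intervals of the shares did not overlap between genotypes at P25 (0.0645% to 0.330% against 0.508% to 0.966%) and P30 (0.0426% to 0.400% against 0.608% to 1.27%). Within these cells C1qa had 9064 CPM for WT and 8938 CPM for KO at P19, a ratio of 0.986 (0.889 to 1.10). At P25 the values were 6816 and 9740 CPM (ratio 1.43, 1.26 to 1.62) and at P30 4867 and 7370 CPM (ratio 1.51, 1.08 to 2.20). Over all cells of a library the KO over WT ratio of C1qa was 4.47, 9.88 and 6.85 at the 3 ages. The ratio over all cells was thus higher than that within the class at each age. C1qb had ratios of 1.06, 1.34 and 1.58 within the class and C1qc of 1.13, 1.51 and 1.83. In rod-like cells C1qa stood at 0 to 6.78 CPM.

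In Müller glia-like cells C4b and Serping1 were higher in KO at each age. The comparison used cluster 3, led by Aqp4 and Rlbp1, at P19 and P25 and cluster 16 at P30, since each held most of the class at those ages, with cells that were fibroblast-like at a finer clustering left out of cluster 16. C4b had 18.6 CPM for WT and 91.9 CPM for KO at P19 (ratio 4.94, 3.30 to 7.67), and at 15.6 and 273 CPM at P25 (ratio 17.4, 11.8 to 26.8). At P30 it was 4.12 CPM in WT, from 1 UMI, and 193 CPM in KO (ratio 46.7, 8.18 to 1865). Serping1 stood at 52.3 and 126 CPM at P19 (ratio 2.4, 1.86 to 3.13), at 31.3 and 278 CPM at P25 (ratio 8.9, 6.73 to 12.0), and at 20.6 and 364 CPM at P30 (ratio 17.7, 7.43 to 55.1). Their levels in rod-like cells were 0 to 3.72 CPM for C4b and 0 to 4.73 CPM for Serping1, below the Müller glia-like WT levels. For C4b in WT at P30 this order is not settled, since its 1 UMI has an interval of 0.104 to 23.0 CPM. Without the cells of the cluster led by Lcn2 the rod-like levels were 0 to 2.11 CPM and 0 to 3.58 CPM. C3 did not share this course at P19, where it held 4.82 CPM in WT and 2.11 CPM in KO (ratio 0.437, 0.109 to 1.6). At P25 it held 1.80 CPM in WT and 23.9 CPM in KO (ratio 13.2, 4.39 to 65.5), and at P30 4.12 and 18.8 CPM (ratio 4.57, 0.633 to 200.3). Of the 86 KO UMIs at P25, 45 came from 53 cells of the cluster led by Lcn2. Without those cells C3 had 1.82 CPM for WT, from 3 UMIs, and 13.7 CPM for KO at P25 (ratio 7.55, 2.41 to 38.1), while the ratio was 19.1 for C4b and 8.79 for Serping1. Rod-like cells held 0 to 2.03 CPM of C3, and 0 to 0.761 CPM without those of the cluster led by Lcn2.

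Cfi was higher in KO within rod bipolar-like cells. It had 27.3 CPM for WT and 49.2 CPM for KO at P19 (ratio 1.81, 1.19 to 2.77), at 27.7 and 83.6 CPM at P25 (ratio 3.02, 2.05 to 4.53), and at 45.0 and 91.6 CPM at P30 (ratio 2.04, 1.03 to 4.40). Nearly all of these cells were in cluster 4 at P19 and P25 and in cluster 26 at P30. Rod-like cells held 0 to 0.565 CPM of Cfi. The cluster led by Ttr and Optc, which had the most RPE markers, held 1 Cfi UMI in the KO library at P25 and 1 in the KO library at P30. That 1 UMI stood for 3.05 CPM at P25 and for 32.1 CPM at P30, the age of the bulk data, where the cluster had 13 KO cells. The other 4 libraries held none, and a count of 0 in the largest of these (87 cells, WT at P19) allows up to 3.79 CPM. This limit is for WT cells and not for KO cells. In the same cluster C4b had 9.44 CPM for WT and 484 CPM for KO at P25, from 18 and 24 cells, where the WT value rested on 1 UMI (ratio 51.3, 9.08 to 2040). At P19 it had 21.4 CPM for WT and 25.0 CPM for KO, and at P30 it had 4 UMIs in KO and none in WT. These cells came from retina suspensions, and the source of Cfi in the RPE libraries was not tested.

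**Figure D5:**
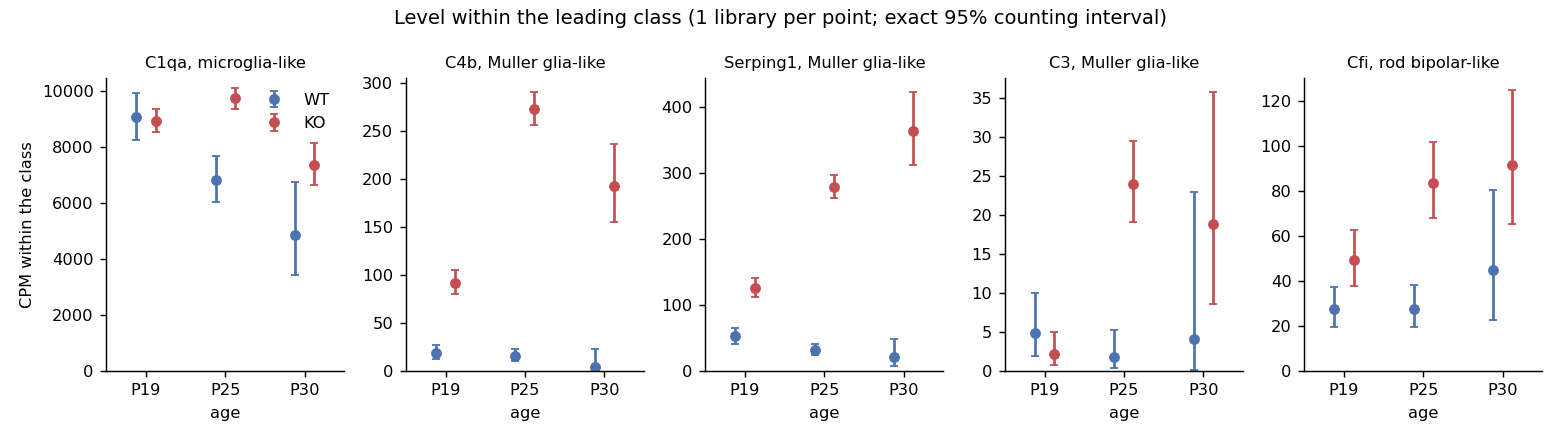
Level of 5 complement genes within the class that held the largest share of their UMIs, in CPM by age, for WT (blue) and KO (red), with 1 library per point and exact 95% counting intervals. C4b and Serping1 are higher in KO at each age, C1qa is at the same height in both genotypes at P19 and higher in KO at P25 and P30, and the C3 intervals overlap at P19 and P30.

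Of the other pathway genes, the receptors shared the source of C1q: microglia and macrophage-like cells held 88.6% of the C3ar1 UMIs, 98.8% of C5ar1, 98.0% of Itgam, 97.1% of Itgax and 97.3% of Itgb2. Clu was mostly Müller glia-like (80.4%), as was C1ra (57.4%), while C1s1, its partner protease, was divided between endothelial-like (42.7%) and pericyte and mural-like cells (37.6%). A2m was spread over astrocyte-like (26.4%), Müller glia-like (24.8%) and Ttr and Optc cells (21.2%). C4a, by contrast with C4b, had 23 UMIs in the whole matrix, and Cpb2 had 38, of which 81.6% were in cone-like cells.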

How the data were processed

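Bulk RNA-Seq of retina and RPE (16 libraries) and single-cell RNA-Seq of retina (6 libraries) were used. The bulk files held raw counts per Ensembl gene, which the authors deposited without normalization, and the aligner and counter of these tables were not stated in the sources used here. The submitters' processing notes name the build mm10, edgeR 3.20.9, Cell Ranger 2.1 and Seurat 3.2.2, among others. The single-cell matrix held natural log values that the authors deposited after scaling each cell to a common total, the log having been applied 2 times, so whole UMIs were recovered by inverting both steps (100% of values whole within 0.01).

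Symbols came from GENCODE M21 (53706 of 53801 IDs). Each tissue was tested in R 4.3.3 with edgeR 4.0.16 (default filter on low counts, TMM scaling, quasi-likelihood test, Benjamini-Hochberg adjustment over all genes tested). The interaction and the WT tissue comparison used all 16 libraries. A call needed an adjusted p below 0.05 and, except for the interaction, a 1.5-fold change. Library depth was 20133143 to 38409496 counts. The procedure was checked on simulated data with 200 changed genes. Levels are TMM-scaled CPM, and RPKM uses exon length.

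Same-numbered WT and KO libraries deviated together from their group means (correlation 0.292 to 0.554 in the retina and 0.684 to 0.854 in the RPE). The KO library that correlated best had the same number for WT replicates 1 and 3 in each tissue. For WT replicates 2 and 4 it was KO replicates 1 and 3 in the retina, and KO replicates 3 and 1 in the RPE. Pairing libraries by replicate number within a tissue was thus an assumption that the correlations bore out in part, and the labels do not state it. The fit with the number as a block is given where it changed a call.

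Cells were clustered with leidenalg 0.10.2 (2000 variable genes without 46 complement genes, 30 principal components, 15 neighbours, resolution 1.0). Of 46 clusters 35 were named from marker lists, and 13.57% of cells stayed unnamed. No doublet caller was run, and leaving out the 5% deepest cells was an alternative. Intervals for counts and shares are exact (95%), and the limit for a count of 0 is 3 counts.

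Text names all 9 members, the other complement genes called in either tissue (at most the 12 with the smallest p per tissue) and Adipor1. Other genes the text mentions (cell markers, C1s2, Cfhr2, Lrp1, Cfd, Cfp, cluster leaders) were added with their values seen. The members and lists were chosen with earlier results of these data known. Alternatives were RLE size factors, library totals, other filters, DESeq2 1.42.0, limma-voom (limma 3.58.1), the replicate block, a shared fit, no minimum fold change, each library left out, and other cell groupings. A gene of the pathway list that the rule names is counted but not reported here.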

Additional observations from a re-analysis of the deposited data

Results flagged for a closer look

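With 4 libraries in a group, a library was singled out when its gap to the nearest other, over the range of the group, passed Dixon's 95% critical value for 4 samples, which chance gives in about 1 in 20 groups. Of 96 groups examined 6 did. Among the members these were C1qb in KO RPE replicate 1 (ratio 0.854), C2 in KO retina replicate 4 (0.831) and Cfi in WT retina replicate 4 (0.866). Among the receptor genes they were C5ar1 in KO retina replicate 3 (0.845), Itgax in WT retina replicate 1 (0.907) and Itgb2 in KO retina replicate 3 (0.977).

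The genotype effect differed between the tissues, by the interaction term of edgeR's quasi-likelihood fit, for 4 of the 9 members, where 8.84% of all genes were called. It also differed for 7 of the other named genes and the targeted gene. The other named genes had been picked by their genotype calls in these same libraries, so their count is no independent result. On the log2 scale the effect in the RPE minus that in the retina was -0.726 for C1qb, -2.45 for C3, -2.737 for Serping1 and 2.346 for Cfi. It was -1.113 for C1ra, -0.831 for Clu, -1.687 for C3ar1, -1.853 for C5ar1, -2.398 for Itgax and -1.059 for Itgb2, and 1.635 for C4a. For Adipor1 it was 0.64, where the KO libraries of both tissues lay below their WT libraries.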

How the results depend on the processing

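The calls of the members in the retina, in the RPE and between the WT tissues were the same under every alternative run. The number of all genes called in the retina was 1946, and 5990 with no minimum fold change. The number in the RPE was 944, and 1441 with DESeq2 and 1571 with both tissues in 1 fit. With 1 library left out, the counts ran from 1823 to 2023 in the retina, from 563 to 1677 in the RPE, from 1449 to 2270 in the interaction and from 13891 to 14595 between the WT tissues. Without WT RPE library 1, 64.2% of the RPE calls were higher, in place of 40.6%. With the replicate block the counts were 1979, 934, 1764 and 14171, and 1866 for the interaction with a block within each tissue, an alternative added after the data were seen. The block took away the RPE calls of Clu, C3ar1 and Itgax and the interaction calls of C1qb, C5ar1, Itgb2 and Lrp1 (adjusted p = 0.0506), and changed no other call of a named gene. The sign turned, with no call in any setting, for C2 in the RPE with limma-voom (log2 0.01825). It turned when 1 library was left out for C2, which ran from -0.01742 to 0.2088 in the retina, from -0.1784 to 0.1412 in the RPE and from -0.2625 to 0.02666 in the interaction. For C4b the interaction ran from -0.2824 to 0.1714. In the interaction C1qc passed without WT RPE library 3 (adjusted p = 0.0425), and calls were lost for C1qb in 19 of 24 alternatives, for Itgb2 and Lrp1 in 16 each, for C5ar1 and Cfhr2 in 5 each and for C1ra in 1. In the RPE, Itgax lost its call in 9 of 17 alternatives, C3ar1 in 8, Clu in 6 and Itgb2 in 2, and in the retina Csmd2 lost its call with both tissues in 1 fit. In these cases the cause was not tested.

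The number of members with over 50% of their UMIs in 1 class was 6 at resolutions 0.5 and 2.0, with a marker gate for microglia, and with fibroblast-like cells taken out (added after the data were seen), and 7 without the deepest 5% of cells. The share in Müller glia-like cells was lower at resolution 2.0 for C4b (66.4%), Serping1 (57.5%), C3 (20%) and Cfb (7.46%). Without the deepest cells it was higher for C4b (85.2%) and Serping1 (75.5%) and lower for Cfb (16.1%). With fibroblast-like cells taken out, it was 73.0% for C4b and 64.95% for Serping1. With the cells of the cluster led by Lcn2 taken out, also added after the data were seen, 6 members had over 50% in 1 class, and the share was 69.0% for C4b, 60.8% for Serping1, 21.25% for C3 and 7.46% for Cfb. Depth limits Cfb in the retina and C2, C3 and Cfb in single cells, and the WT levels at P30, where C4b rested on 1 UMI.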
